A study of Caenorhabditis elegans with 8 samples.

Results

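The glutathione S-transferase genes of Caenorhabditis elegans were examined in dissected intestines of fed and fasted adults. Members were the genes of the count table whose WormBase identifier carries a symbol of the form gst, gsto or gstk followed by a number. There were 49 such genes among the 20392 in the table. All were N2 (Bristol) wild-type animals, taken on the first day of adulthood after growth on OP50 bacteria. Fed intestines came from animals dissected straight from food after a wash, and fasted intestines from animals kept without food for 12 h in rolling M9 buffer. Each group had 4 libraries, described by the labels as independent biological replicates, each from pooled intestines. Fasting, time in liquid and added age come together in this design and cannot be told apart. The growth text of the labels also mentions plates with auxin, which the study's methods do not give for these animals.

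Glutathione S-transferases join the tripeptide glutathione to reactive or foreign molecules, which makes these easier to export, and some family members have other catalytic roles. The nematode family is large, with most genes numbered gst, an omega class named gsto and a kappa class named gstk. In the worm intestine the gene gst-4 is widely used as a reporter of the oxidative stress response driven by the transcription factor SKN-1.

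Libraries held 20964161 to 26372847 counts in the fed group and 25310202 to 33846215 in the fasted group. Levels are given as reads per 1000000 counts of a library (RPM), and 3 counts, taken here as the floor, lay between 0.0886 and 0.143 RPM. Differences were tested over all genes with edgeR's quasi-likelihood test, and a gene was called at a Benjamini-Hochberg FDR under 0.01 with a fold change over 1.5. With the total count as library size, as the study scaled its data, the median log2 fold change of the 7379 tested genes was 1.23, and with TMM scaling, which centres the bulk of genes, it was 0.16. Changes are therefore also given relative to 1.23 or under TMM. Fasted libraries also held more transcripts of other tissues than fed ones. The summed level of 10 body wall muscle markers was 10.8 to 14.9 RPM in fed libraries and 1489, 279.6, 38.3 and 2002 RPM in fasted libraries 1 to 4, and 2 of its genes, myo-3 and tnt-2, had no count in any fed library. The 8 pharynx markers went from 3.54 to 6.56 RPM in fed libraries up to 209, 13.7, 10.1 and 391 RPM in the fasted ones, with myo-5 and marg-1 at 0 in every fed library. The 10 germline and oocyte markers reached 107, 392, 31.9 and 34.7 RPM in fasted libraries against at most 6.64 RPM in fed ones, where oma-1 was at 0, and the 10 neuron markers reached 16.5 to 80.4 RPM against at most 13.4 RPM, with 4 of them at 0 in fed libraries. The 7 hypodermis markers spanned 8.93 to 58.7 RPM in fed and 7.24 to 249 RPM in fasted libraries, with bli-1 and col-120 at 0 in fed ones, and the 7 sperm markers stayed at or under 0.531 RPM throughout, 5 of them at 0 in fed libraries. The 12 intestine markers summed to between 12267 and 13279 RPM in fed and between 8072 and 8486 RPM in fasted libraries, so that transcripts defining the labelled tissue were abundant in both groups. Most of this sum was cpr-6, at 9620 to 10282 RPM in fed and 6544 to 7065 RPM in fasted libraries. By total count elt-2, elt-7 and ges-1 were called higher. act-5, asp-1, cpl-1, pept-1 and nhx-2 were called lower, and the other intestine markers were not called. Under TMM act-5, asp-1, cpl-1, pept-1 and nhx-2 were again called lower, and so were ifb-2, mtl-2, vha-6 and cpr-6. There elt-2 (0.49), elt-7 (−0.04) and ges-1 (−0.11) were not called. In such bulk samples, fewer cells of a type and less RNA per cell cannot be told apart.

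The most abundant glutathione S-transferase genes differed between fed and fasted intestines. A gene that was near silent in fed intestines, gst-20, became the most abundant member in fasted ones. gst-27 and gst-26, which ranked 1 and 3 per kilobase in fed intestines, fell to a fraction of their level. gst-13 ranked 2 per kilobase in both groups. Of the 21 members that passed the filter on low counts, 7 were called higher and 7 lower in fasted intestines. A gene passed with at least 0.379 RPM in any 4 libraries. For 4 members every library of 1 group only reached this level. That was the fasted group for gst-15 and gst-24 and the fed group for gst-28 and gst-39. In the other group gst-15 reached it in 0 libraries, gst-28 in 1, gst-24 in 2 and gst-39 in 3. For these 4 the filter favoured a higher level in the group that reached it throughout. Among the other 17 there were 5 higher and 6 lower calls (1 and 10 under TMM). Among all tested genes 52.9% were called higher and 9.97% lower (62.8% either way), so that the lower calls took 33.3% of the tested members against 9.97% of genes at large, and the higher calls 33.3% against 52.9%. The median log2 fold change of the tested members was −0.21, against 1.23 for all tested genes. Under TMM 1 member was called higher and 12 lower (background 19.6% and 21.5%), with a median of −1.28. With DESeq2 3 were higher and 13 lower (background 23.7% and 23.8%). Without fasted libraries 1 and 4, which held the most muscle and pharynx transcripts, 5 were higher and 5 lower (background 38.6% and 8.47%), and with TMM on those 6 libraries 1 was higher and 10 lower (12.3% and 17.5%, 29.8% either way). By RPM, 8 of the 21 lay higher in every fasted library than in any fed library (58.5% of all tested genes) and 8 lay lower (11.1%), against 69.7% of all tested genes that did not overlap either way.

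**Figure D1:**
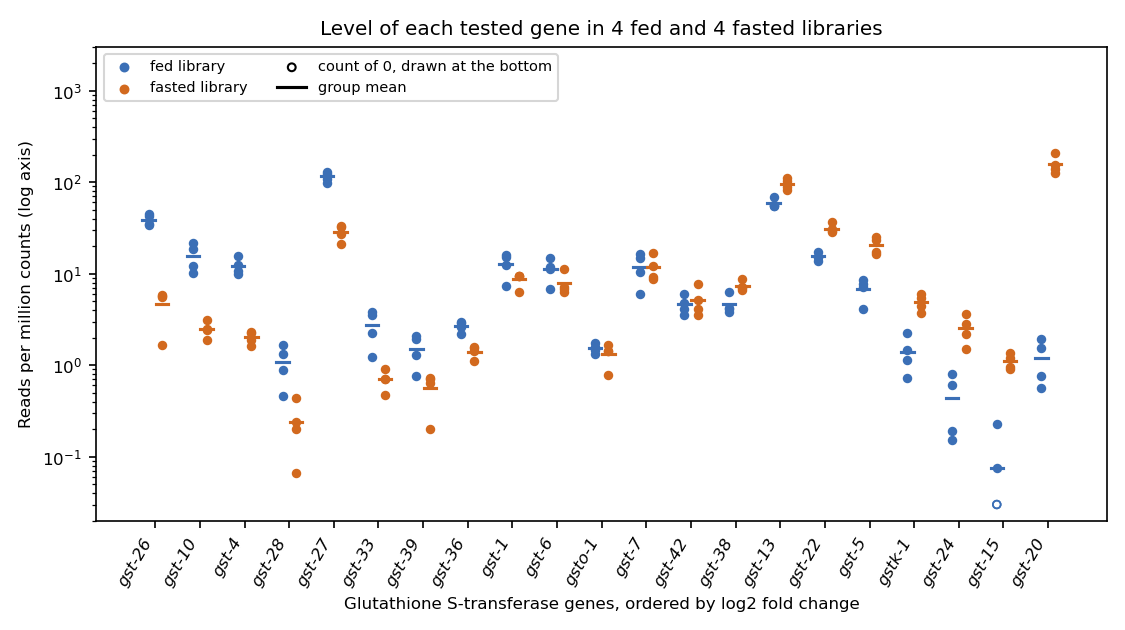
RPM (log axis) of the 21 tested glutathione S-transferase genes in each of the 4 fed (blue) and 4 fasted (orange) libraries, with bars at the group means and open circles at the bottom for counts of 0. At the right, gst-20 goes from at most 1.956 to at least 125 RPM, and at the left gst-26, gst-10 and gst-4 lie lower in every fasted library than in any fed one.

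By total count the summed level of the family overlapped between the groups. Its members summed to 376, 279.9, 291 and 340.5 RPM in fed libraries 1 to 4 and to 465, 391, 355 and 383 RPM in the fasted ones. The ranges overlapped, since fed library 1 lay above fasted library 3. The mean went from 322 ± 44.8 to 398 ± 46.9 RPM (SD, n = 4), a ratio of 1.24. Scaled by TMM the same sum fell from 467 ± 61.7 to 274 ± 25.7 (SD, n = 4), a ratio of 0.586, with no overlap (397 to 537 in fed and 257 to 312 in fasted libraries), and as a share of counts outside the vitellogenin genes it was nearly level, with a ratio of 1.03. Without gst-20 the sum went from 321 ± 44.8 to 242 ± 18.9 RPM (SD, n = 4), and the groups did not overlap (278 to 375 against 217 to 258 RPM).

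The make-up of these counts differed strongly between the groups. In fed libraries gst-27 held 35.9% ± 2.29 of the family's counts, gst-13 18.3% ± 1.47 and gst-26 12.1% ± 0.406 (SD, n = 4). In fasted libraries gst-20 held 39.0% ± 5.05 and gst-13 24.1% ± 2.80, while gst-27 was down to 7.18% ± 1.37 and gst-26 to 1.19% ± 0.538 (SD, n = 4). The share of gst-20 in fed libraries was 0.382% ± 0.232 (SD, n = 4). Per kilobase of exon, the order in fed intestines was led by gst-27 at 155 ± 18.7, gst-13 at 79.7 ± 8.96 and gst-26 at 53.5 ± 7.32 RPM per kilobase, followed by gst-22 at 21.4 ± 1.95 and gst-10 at 19.9 ± 6.84 (SD, n = 4). The first 3 were separated by more than their SD, whereas gst-22, gst-10, gst-7, gst-1, gst-4 and gst-6, in ranks 4 to 9, were not separated from their neighbours in the order. In fasted intestines gst-20 stood first at 211 ± 50.1 RPM per kilobase, then gst-13 at 130.0 ± 17.1, gst-22 at 42.9 ± 5.06 and gst-27 at 38.4 ± 7.51, the last pair lying within their spread (SD, n = 4).

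**Figure D2:**
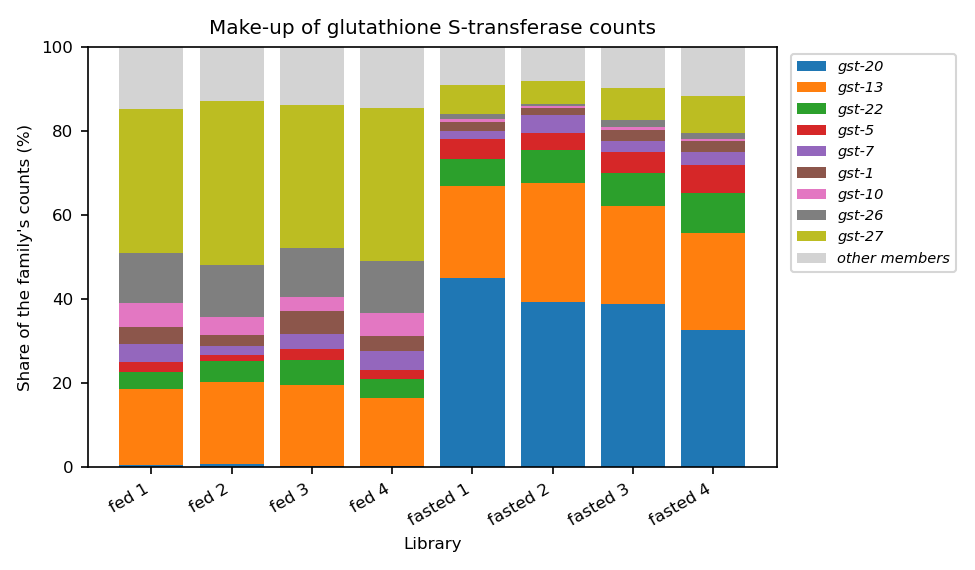
Share of the family's counts (%) taken by 9 members and by all others together, in each of the 4 fed and 4 fasted libraries. In fed libraries gst-27 holds 33.99% to 39.0% and gst-20 at most 0.699%, and in fasted libraries gst-20 holds 32.7% to 45.1% and gst-27 at most 8.72%.

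The increase of gst-20 (WBGene00001768, chromosome II) exceeded that of every other tested member. It stood at 1.56, 1.956, 0.563 and 0.758 RPM in fed libraries 1 to 4 and at 209.6, 154, 138 and 125 RPM in the fasted ones, which in raw numbers is 14 to 41 counts against 3891 to 6383. All fasted values were far above all fed ones. The mean was 129.7-fold higher in fasted intestines (log2 fold change 7.03, SE 0.407, edgeR FDR 2.20e-07), or 5.796 above the median of all genes, and under TMM the log2 fold change was 5.93 (SE 0.403, FDR 5.84e-07). By fitted fold change gst-20 ranked 24 of the 7244 tested genes that were above the floor in fed libraries. gst-20 stood at 138 RPM in fasted library 3, where muscle markers summed to 38.3 and germline markers to 31.9 RPM, the lowest of the fasted libraries. Without fasted libraries 1 and 4 the log2 fold change of gst-20 was 6.92 (edgeR FDR 3.78e-06). The germline marker glh-1 fell from fasted library 1 to 4 in the order of gst-20, at 65.1, 46.3, 28.4 and 27.9 RPM. The summed germline markers did not follow that order and were highest in fasted library 2 (392 RPM). The part of other tissues in the gst-20 counts was not tested. No role in the worm is given here for gst-20, gst-26 or gst-27.

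Along chromosome II, gst-20 is the first of 9 family members that follow each other with no other protein-coding gene between them in the WBcel235 annotation, all on the same strand. The next pair, gst-24 and gst-15, lay higher in fasted libraries at much lower levels. Both reached the filter's level in every library of the fasted group only. gst-24 (WBGene00001772), whose product was shown to act on the lipid peroxidation product 4-hydroxynonenal, stood at 0.152, 0.191, 0.805 and 0.607 RPM in fed libraries and 2.79, 1.501, 2.20 and 3.66 RPM in fasted ones. The groups did not overlap (log2 fold change 2.51, SE 0.524, edgeR FDR 0.00134), but gst-24 was not called under TMM (1.46, FDR 0.0294) or without fasted libraries 1 and 4 (2.06, FDR 0.0218). gst-15 (WBGene00001763) had 6, 0, 0 and 2 counts in fed libraries and 29, 23, 36 and 46 in fasted ones. Its log2 fold change of 3.72 (SE 0.746, edgeR FDR 0.00103) was likewise lost under TMM (2.69, FDR 0.0113) and without fasted libraries 1 and 4 (3.66, FDR 0.0117). DESeq2 called both genes higher, at 2.73 for gst-15 (DESeq2 FDR 0.00128) and 1.46 for gst-24 (DESeq2 FDR 0.00955). The 6 further genes of the row, gst-14, gst-12, gst-16, gst-19, gst-17 and gst-18, had at most 18 counts in any library and were not tested. Of these, gst-16 had 0, 0, 0 and 4 counts in fed and 9, 15, 3 and 6 in fasted libraries. gst-17 and gst-18, with exon lengths of 684 and 594 bases, share 351 of them on the same strand. Reads within that stretch cannot be told apart, and gst-18 had no count. Protein-coding genes near this row were singled out after their values were seen. Before gst-20 the nearest, csp-1, had at most 6 counts in any library and was not tested. Next to it, csc-1 had 0, 0, 0 and 2 counts in fed and 16, 2, 6 and 6 in fasted libraries and was not tested. Further out, fbxc-23 was not called (log2 fold change 0.60, edgeR FDR 0.174). tag-10, the nearest after gst-18, was lower (−2.93, edgeR FDR 1.03e-05). Beyond tag-10, phdh-1 was called lower (−1.958, edgeR FDR 8.93e-04) and fbxa-167 higher (1.515, edgeR FDR 1.76e-04). Under TMM tag-10 and phdh-1 were again called lower, and fbxa-167 was not called (0.46, FDR 0.0995).

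In a further row of 6 members on chromosome II, 3 of the 4 tested genes were called lower and none higher, against 9.97% and 52.9% of all tested genes. One of the 3, gst-28, reached the filter's level in every library of the fed group only, as did gst-39, which was not called. It starts with gst-26 and gst-27, which ranked 3 and 1 per kilobase in fed intestines. gst-26 (WBGene00001774) stood at 44.5, 34.7, 34.1 and 42.6 RPM in fed libraries and 5.68, 1.66, 5.90 and 5.50 RPM in fasted ones. Every fasted value was below every fed value, and the mean was 8.32-fold lower (log2 fold change −3.05, SE 0.345, edgeR FDR 2.02e-05), which places gst-26 4.28 below the median of all genes. gst-27 (WBGene00001775), with 129, 109, 98.9 and 124.03 RPM in fed and 32.3, 21.3, 26.98 and 33.4 RPM in fasted libraries, was 4.05-fold lower (log2 fold change −2.02, SE 0.172, edgeR FDR 2.82e-06). Both were also called under TMM, at −4.12 and −3.10, and without fasted libraries 1 and 4, at −3.36 and −2.26. Next in the row, gst-28 (WBGene00001776), went from 12, 28, 22 and 44 counts in fed to 2, 6, 6 and 15 in fasted libraries. In RPM its groups did not overlap, although the highest fasted library, at 0.443, came close to the lowest fed one, at 0.455 (log2 fold change −2.16, SE 0.592, edgeR FDR 0.00668). That call was lost without any 1 library other than fed library 1 or fasted library 4 (log2 fold change −2.25 to −1.86 in those 6 fits, edgeR FDR 0.0148 to 0.0301), with either other filter (FDR 0.0195 and 0.0136) and without fasted libraries 1 and 4 (FDR 0.0188). gst-39 stood at 0.763 to 2.09 RPM in fed and 0.200 to 0.723 RPM in fasted libraries and missed the threshold (−1.42, SE 0.472, edgeR FDR 0.0182), but was called lower under TMM (−2.49, FDR 6.84e-04). The remaining members gst-29 and gst-31 had at most 16 counts in any library and were not tested.

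**Figure D3:**
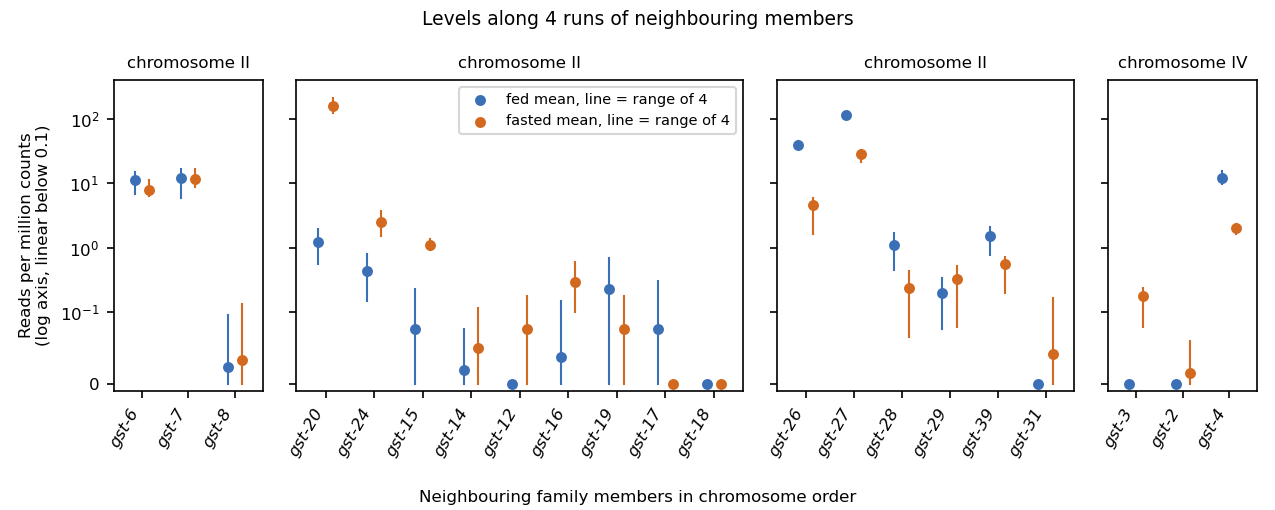
Mean RPM (points) and range over the 4 libraries of a group (lines) for fed (blue) and fasted (orange) intestines, along 4 rows of neighbouring family members in chromosome order, on a log axis that is linear below 0.1. In the row of 9 the fasted points of gst-20, gst-24 and gst-15 lie above the fed ones, and in the row of 6 those of gst-26, gst-27, gst-28 and gst-39 lie below.

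On other chromosomes, gst-4 and gst-10 were called lower. gst-4 (WBGene00001752, chromosome IV) stood at 15.7, 9.87, 10.6 and 12.4 RPM in fed libraries and 2.30, 1.62, 1.90 and 2.27 RPM in fasted ones. The groups were well apart, with a mean 6.0006-fold lower in fasted intestines (log2 fold change −2.58, SE 0.219, edgeR FDR 2.72e-06, −3.65 under TMM). gst-10 (WBGene00001758, chromosome V), whose product conjugates 4-hydroxynonenal, went from 21.5, 12.1, 10.1 and 18.4 RPM in fed to 3.09, 1.90, 2.43 and 2.48 RPM in fasted libraries. It was 6.28-fold lower (log2 fold change −2.65, SE 0.278, edgeR FDR 1.18e-05, −3.72 under TMM). Neither call changed without fasted libraries 1 and 4, where the values were −2.78 for gst-4 and −2.84 for gst-10. In the annotation gst-4 overlaps exons of dhs-12 on the same strand by 65 bases. dhs-12 itself was called higher, from 0.577 to 3.17 RPM on average (log2 fold change 2.45, edgeR FDR 1.94e-04), opposite to gst-4. The genes beside gst-4 in its row, gst-3 and gst-2, had at most 8 counts in any library.

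A pair of scarcer genes outside these rows was also called lower. gst-33 (WBGene00001781, chromosome V) stood at 3.83, 1.24, 2.25 and 3.56 RPM in fed libraries and 0.920, 0.711, 0.466 and 0.709 RPM in fasted ones, with no overlap (log2 fold change −1.95, SE 0.400, edgeR FDR 0.00119). gst-36 (WBGene00001784, chromosome X) went from 2.88, 2.62, 2.21 and 2.96 to 1.41, 1.11, 1.53 and 1.57 RPM, again with no overlap (log2 fold change −0.92, SE 0.246, edgeR FDR 0.00573). The call of gst-36 was lost without any 1 library other than fed library 3 or fasted library 4 (log2 fold change −0.97 to −0.83 in those 6 fits, edgeR FDR 0.0126 to 0.0188), without a filter (FDR 0.0322) and without fasted libraries 1 and 4 (FDR 0.0261), and its exons overlap those of scav-5 on the other strand by 93 bases. scav-5 itself was called higher by total count (log2 fold change 1.49, edgeR FDR 6.68e-04). Reads were counted in the orientation of the gene, but whether the library kit kept strand is not given in the sources used here, so that reads of such partners may be mixed.

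A total of 4 members outside these rows were higher by total count, of which gst-5 and gstk-1 exceeded the median gene and gst-22 and gst-13 did not. gst-5 (WBGene00001753, chromosome II), whose product also acts on 4-hydroxynonenal, stood at 8.42, 4.10, 7.76 and 7.09 RPM in fed and 23.1, 16.4, 17.2 and 25.3 RPM in fasted libraries. It was 2.99-fold higher with no overlap (log2 fold change 1.58, SE 0.246, edgeR FDR 1.93e-04), 0.35 above the median of all genes. gstk-1 (WBGene00014251, chromosome II) belongs to the kappa class, whose members lie in mitochondria and peroxisomes in mammals. It went from 1.48, 2.24, 0.724 and 1.14 RPM to 3.68, 5.37, 4.40 and 5.94 RPM, with no overlap (log2 fold change 1.80, SE 0.332, edgeR FDR 5.99e-04), 0.57 above the median. Neither was called under TMM, where the values were 0.51 (FDR 0.0676) for gst-5 and 0.71 (FDR 0.106) for gstk-1.

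The remaining higher calls were smaller than the shift of all genes. gst-13 (WBGene00001761, chromosome II), which ranked 2 per kilobase in both groups, stood at 68.6, 54.7, 56.1 and 55.5 RPM in fed and 102, 110.3, 82.6 and 88.5 RPM in fasted libraries. Its groups did not overlap (log2 fold change 0.71, SE 0.140, edgeR FDR 9.71e-04), but the value lay 0.52 below the median of all genes and turned to −0.37 under TMM (FDR 0.0313). gst-22 (WBGene00001770, chromosome V) rose by total count from 15.4, 13.7, 17.2 and 15.4 to 29.0, 30.4, 28.2 and 36.3 RPM. This 2.01-fold difference (log2 fold change 1.007, SE 0.148, edgeR FDR 1.25e-04) lay 0.22 below the median and was −0.07 under TMM (FDR 0.687).

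**Figure D4:**
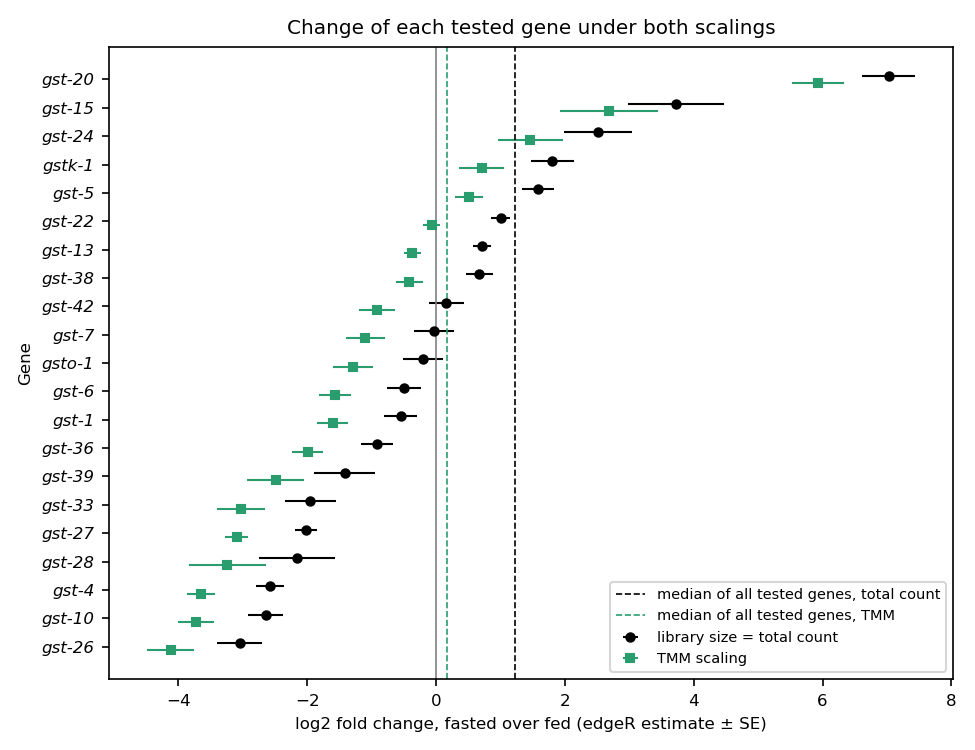
edgeR log2 fold change (fasted over fed, ± SE) of the 21 tested members with the total count as library size (black circles) and with TMM scaling (green squares), with dashed lines at the medians of all 7379 tested genes. By total count 5 members lie above the median of 1.23 and 16 below it, and under TMM every value lies lower, with only gst-20 called higher.

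The 7 tested members that were not called by total count included genes of either sign. gst-6 and gst-7 head a row of 3 on chromosome II. gst-6 stood at 6.77 to 14.8 RPM in fed and 6.36 to 11.3 RPM in fasted libraries (log2 fold change −0.50, SE 0.268, edgeR FDR 0.110). gst-7 stood at 6.01 to 16.4 RPM in fed and 8.74 to 16.8 RPM in fasted libraries, with a 95% interval of the log2 fold change from −0.65 to 0.59 (edgeR FDR 0.934). gst-1, studied in worms for its protection of dopamine neurons, stood at 7.25 to 15.8 RPM in fed and 6.24 to 9.53 RPM in fasted libraries (−0.55, SE 0.256, edgeR FDR 0.0697), and it was called lower without fed library 2 (−0.74, FDR 0.00966). gsto-1, an omega-class gene known to be expressed in the intestine, stood at 1.33 to 1.76 RPM in fed and 0.790 to 1.67 RPM in fasted libraries (−0.21, SE 0.311, edgeR FDR 0.551). Its exons overlap those of kle-2 on the other strand by 52 bases, and kle-2 was called higher (log2 fold change 2.73, edgeR FDR 2.69e-06). These 4 were called lower under TMM, at −1.57 for gst-6, −1.10 for gst-7, −1.61 for gst-1 and −1.28 for gsto-1. Under TMM without fasted libraries 1 and 4, gst-7 (−0.96, FDR 0.0605) and gsto-1 (−1.51, FDR 0.0192) were not called. gst-38 stood at 3.82 to 6.33 RPM in fed and 6.63 to 8.67 RPM in fasted libraries, did not overlap and narrowly missed the threshold (0.67, SE 0.210, edgeR FDR 0.0140). Without fed library 4 it was called higher (0.86, edgeR FDR 0.00389), and it was −0.41 under TMM. gst-42 is treated with tyrosine breakdown below, and gst-39 was described with its row.

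Most of the family was too scarce to test in the intestine. The other 28 members had at most 47 counts in any library, 3 of them (gst-18, gst-34 and gst-37) had none, and 8 had no more than 3 counts in any library of either group. The largest of these counts belonged to gstk-2, the second kappa gene, with 4, 2, 0 and 8 counts in fed and 22, 4, 27 and 47 in fasted libraries, and its exons overlap those of elo-3 on the other strand by 44 bases. The zeta-class gene gst-43 had 0, 0, 2 and 2 counts in fed and 7, 5, 7 and 19 in fasted libraries, at least 2.49-fold higher than the floor in fed libraries. Some of the scarce genes were seen only in fasted libraries with the most muscle, pharynx or germline transcripts, and others were not. gst-40 had 9 and 6 counts in fasted libraries 1 and 4 and none elsewhere, gst-12 had 4 and 6 in the same libraries, and gst-41 had 2 and 30 there, while gsto-2 had 4 counts in fasted library 2 alone. By contrast gst-17 had 8 counts in fed library 1 alone. gst-8 had 4 in fasted library 3 and 2 in fed library 2, and gst-3 had 6, 2, 6 and 8 in fasted libraries 1 to 4. The part of muscle, pharynx, neuron or germline transcripts in these counts was not tested.

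To place the family in its pathway, 38 genes for glutathione supply and use, conjugate export, redox relays, regulators and tyrosine breakdown were followed. Of the 29 that were tested, 10 were called higher and 6 lower by total count, and 3 higher and 10 lower under TMM, against 52.9% and 9.97% of all tested genes by total count and 19.6% and 21.5% under TMM. Their median log2 fold change was 0.53. Of these genes gpx-6 and trx-4 reached the filter's level in every library of the fasted group only, and gpx-1 of the fed group only. Of the other 26 tested genes 8 were called higher and 5 lower (2 and 9 under TMM). Of the 3 genes for glutathione synthesis and reduction, 1 was called higher by total count and none lower, and under TMM 2 were lower. gcs-1, which encodes the enzyme of the first and limiting step of synthesis and is a target of SKN-1, stood at 8.19, 6.06, 6.56 and 5.84 RPM in fed and 11.6, 10.1, 13.1 and 9.51 RPM in fasted libraries. It was called higher with no overlap (log2 fold change 0.73, SE 0.184, edgeR FDR 0.00414), but lay below the median gene and turned to −0.33 under TMM (FDR 0.156). The call was lost without fed library 2, 3 or 4 or fasted library 1 or 3 (log2 fold change 0.64 to 0.73, edgeR FDR 0.0119 to 0.0159) and without fasted libraries 1 and 4 (0.80, FDR 0.0156). gss-1, the glutathione synthetase gene, and gsr-1, the glutathione reductase gene, were not called (0.08 with SE 0.267 and 0.20 with SE 0.154, edgeR FDR 0.803 and 0.261) and were lower under TMM, at −1.002 and −0.88.

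The peroxidase genes divided. gpx-6 had no count in any fed library and 52, 28, 32 and 52 counts in fasted ones, at least 11.02-fold higher than the floor, and it passed the filter through the fasted libraries alone (edgeR FDR 4.90e-05). gpx-1 went from 3.45, 2.24, 1.77 and 2.58 to 0.854, 0.395, 0.2997 and 0.443 RPM (log2 fold change −2.32, SE 0.395, edgeR FDR 3.51e-04). gpx-7 stood at 11.9 to 17.2 RPM in fed and 4.11 to 9.66 RPM in fasted libraries (−1.36, SE 0.277, edgeR FDR 0.00118). gpx-1 reached the filter's level in every fed library but in only 3 fasted ones. All 3 kept their calls under TMM, and the other 5 peroxidase genes were not tested. Among them gpx-3 and gpx-5 had 57 and 58 counts in fasted library 1, 57 and 31 in fasted library 4 and at most 6 in any other library. gpx-4 had no count in any fed library and 10, 16, 12 and 12 counts in fasted libraries 1 to 4. Of the glutaredoxin genes, glrx-3, which encodes a monothiol glutaredoxin, rose from 3.45 to 4.10 RPM in fed to 17.98 to 24.2 RPM in fasted libraries (log2 fold change 2.38, SE 0.167, edgeR FDR 7.31e-07, 1.31 under TMM), and the other 3 tested were not called. Of the thioredoxin genes only trx-4 was called (1.99, SE 0.505, edgeR FDR 0.00441), and not under TMM (0.92, FDR 0.144). That call was lost without fed library 2 or 3 or fasted library 1, 3 or 4 (log2 fold change 1.74 to 1.97, edgeR FDR 0.0116 to 0.0158). It was also lost with no filter (1.99, FDR 0.0178) and without fasted libraries 1 and 4 (1.69, FDR 0.0575). trx-4 reached the filter's level in every fasted library but in only 2 fed ones.

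The mrp genes encode transporters of the ABC family, some of which export glutathione conjugates. By total count mrp-5, a heme exporter in worms, went from 39.6 to 48.0 RPM in fed to 82.2 to 86.8 RPM in fasted libraries (log2 fold change 0.97, SE 0.119, edgeR FDR 3.50e-05). mrp-3 (0.88, SE 0.184, edgeR FDR 0.00142) and mrp-7 (1.33, SE 0.185, edgeR FDR 8.75e-05) were also called higher. None of the 3 was called under TMM, at −0.11, −0.20 and 0.26, and the other 3 tested mrp genes were not called by total count. Of these mrp-1 was called lower under TMM (−0.74, FDR 0.00749) and by DESeq2 (−0.75, DESeq2 FDR 7.61e-04).

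Of the 4 regulator genes, 3 were called higher by total count and none lower, and under TMM 1 was higher and 1 lower. Of all tested genes 52.9% were higher by total count, and 19.6% were higher and 21.5% lower under TMM. skn-1 stood at 26.2, 18.7, 22.5 and 21.3 RPM in fed and 63.4, 80.3, 72.1 and 40.8 RPM in fasted libraries, with no overlap (log2 fold change 1.53, SE 0.211, edgeR FDR 8.15e-05, 0.47 and not called under TMM). Under TMM without fasted libraries 1 and 4 it was called higher (0.71, FDR 0.00637). Transcript levels do not measure the activity of the protein. wdr-23, whose product marks SKN-1 for degradation, was not called by total count (−0.37, SE 0.136, edgeR FDR 0.0289) and was lower under TMM (−1.45, FDR 2.94e-06). mdt-15, a Mediator subunit that takes part in xenobiotic responses, rose from 15.1 to 21.7 RPM in fed to 68.2 to 71.8 RPM in fasted libraries (1.98, SE 0.151, edgeR FDR 1.29e-06, 0.91 under TMM). elt-2, the GATA factor of the intestine, was called higher by total count (1.57, SE 0.284, edgeR FDR 5.24e-04) and not under TMM (0.49, FDR 0.183).

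**Figure D5:**
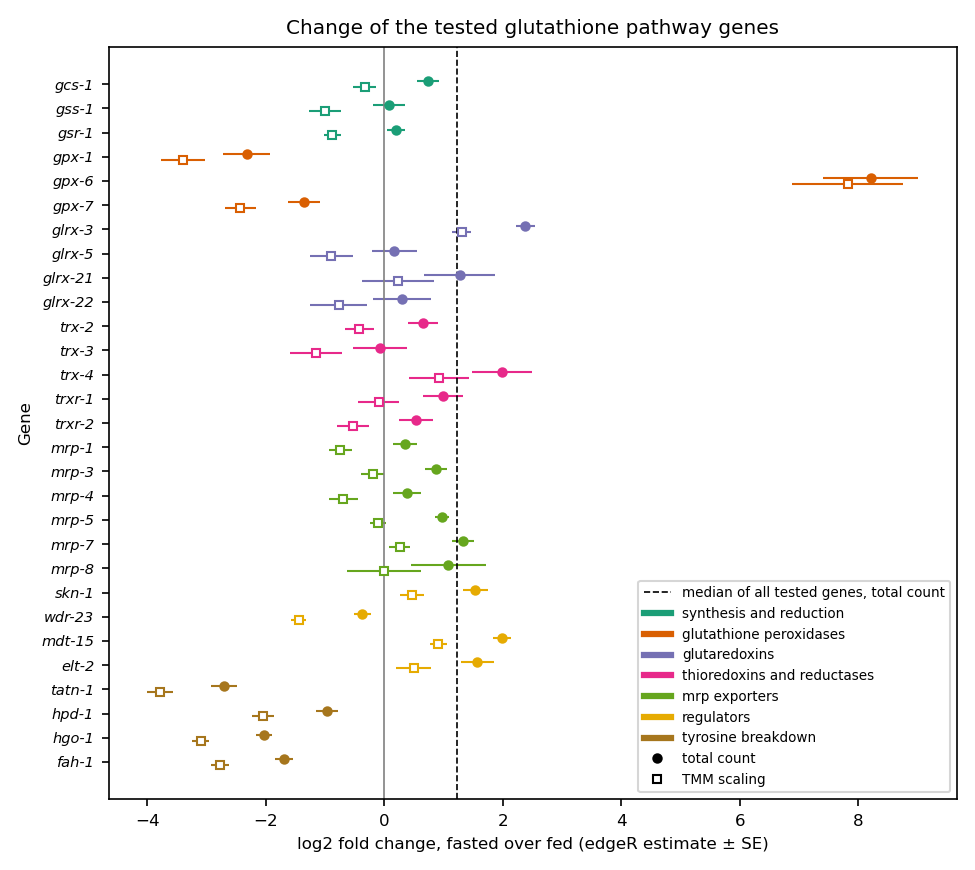
edgeR log2 fold change (fasted over fed, ± SE) of the 29 tested pathway genes with the total count as library size (filled circles) and with TMM scaling (open squares), coloured by role, with a dashed line at the median of all tested genes. The 4 tyrosine breakdown genes lie below 0 under both scalings. The value of gpx-6, which had no count in fed libraries, depends on the prior count of the fit and is not an estimate of its size.

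Genes of tyrosine breakdown, in which the zeta-class transferase gst-42 encodes the maleylacetoacetate isomerase, were lower on both sides of gst-42. All 4 enzymes tested around it were called lower under both scalings, against 9.97% of all tested genes by total count and 21.5% under TMM. tatn-1, the tyrosine aminotransferase gene, went from 41.2, 48.2, 58.4 and 51.1 RPM to 7.39, 6.24, 5.86 and 10.96 RPM (log2 fold change −2.71, SE 0.224, edgeR FDR 2.33e-06). hpd-1, which acts on the next intermediate, changed by −0.97 (SE 0.187, edgeR FDR 8.15e-04). hgo-1, the homogentisate oxidase gene just upstream of gst-42, went from 169, 149.8, 170.3 and 161 RPM to 42.3, 31.7, 42.6 and 42.4 RPM (−2.03, SE 0.136, edgeR FDR 5.43e-07). fah-1, just downstream, went from 118 to 129.6 RPM in fed to 31.4 to 44.2 RPM in fasted libraries (−1.69, SE 0.150, edgeR FDR 3.65e-06). gst-42 itself (WBGene00001790, chromosome X) stood at 5.99, 4.15, 3.4999 and 4.78 RPM in fed and 4.14, 3.56, 5.16 and 7.71 RPM in fasted libraries. Its groups overlapped, and the 95% interval of its log2 fold change ran from −0.38 to 0.70 (0.16, SE 0.274, edgeR FDR 0.602). It was −0.92 under TMM (FDR 0.0152) and was called lower by DESeq2 (−0.93, DESeq2 FDR 0.00395). The difference between gst-42 and the other enzymes was not tested.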

How the data were processed

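RNA of dissected intestines was copied into cDNA, amplified with the SMART-Seq mRNA kit and sequenced in 4 fed and 4 fasted libraries. The deposited values are counts per gene. The authors trimmed adaptors, aligned reads to ce10 with QuasR in spliced mode, kept unique reads and counted those in WormBase exons in the same orientation as the gene. Closely similar genes therefore lose shared reads, and reads of overlapping genes may be mixed. Removal of PCR duplicates is not given in the sources used here, and floors cover counting error alone. The authors' table also holds an exon length, a width in base pairs, used here for levels per kilobase. Value columns without a matching library numbered 0.

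Symbols were looked up by WormBase identifier (19182 of 20392 matched). Chromosome, order and overlap came from Ensembl's WBcel235 annotation, a later build than ce10, so that no base coordinates are given. Members and lists were chosen with earlier results of these data known. Sequences were not analysed here.

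Low genes were dropped by filterByExpr, with its count minimum at 10 and its total at 15, and groups were compared with edgeR 4.0.16 (glmQLFit, glmQLFTest, R 4.3.3), total count as library size, Benjamini-Hochberg over 7379 genes. The SE is the log2 fold change divided by the square root of F, and 95% intervals use the normal approximation. The fits were tested on simulated data. Alternatives were TMM, DESeq2 1.42.0, no filter, a mean of at least 10 counts, leaving out libraries and a replicate block. A floor was 3 counts in every library of a group, and a fold against it is a lower bound computed on the mean floor of the fed libraries. Values in every library are given for called members (up to 8 higher and 8 lower), the 6 highest per kilobase and members whose call changed under TMM where the text turns on them. Every pair of libraries differed by more than counting error (chi-square per gene at least 15.1).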

Additional observations from a re-analysis of the deposited data

Results flagged for a closer look

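Within groups of 4 libraries, 8 of 102 examined sets of values had a highest or lowest library whose gap to the others passed Dixon's 95% critical value, a limit that chance passes in about 1 of 20 groups. Fasted library 2 was lowest in 3 of them. It had 6.24 RPM of gst-1 against 9.42 to 9.53 in the other fasted libraries, 1.66 RPM of gst-26 against 5.50 to 5.90, and 31.7 RPM of hgo-1 against 42.3 to 42.6. This library also held the most germline and oocyte marker transcripts (392 RPM), whose part in these values was not tested.

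Fasted library 1 was highest for gst-6 (11.3 RPM against 6.36 to 7.15), and fasted library 4 for gpx-7 (9.66 RPM against 4.11 to 4.99). Among fed libraries, library 1 was highest for gst-13 (68.6 RPM against 54.7 to 56.1), library 4 for gst-38 (6.33 RPM against 3.82 to 4.198) and library 2 for trxr-1 (1.53 RPM against 0.724 to 0.797).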

How the results depend on the processing

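The scaling decided the split of calls. TMM gave 1 member higher and 12 lower, 3 and 10 pathway genes, and 1448 and 1585 of all genes. DESeq2 gave 3 and 13 members, 3 and 10 pathway genes, and 1748 and 1754 of all genes. TMM without fasted libraries 1 and 4, an alternative added after seeing the data, gave 1 member and 4 pathway genes higher and 943 higher and 1338 lower of all genes. The summed level of the family went from a ratio of 1.24 to 0.586 scaled by TMM and to 1.03 outside vitellogenins. The median log2 fold change of all genes was 1.07 lower under TMM. Values of tested members were 1.03 to 1.10 lower, and those of tested pathway genes 1.04 to 1.09 lower except for gpx-6, which has no fed count (0.39 lower).

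In the order TMM, DESeq2, TMM with the replicate block and TMM without fasted libraries 1 and 4, the log2 fold change was −0.37, −0.38, −0.37 and −0.37 for gst-13. It was −0.067, −0.076, −0.072 and −0.14 for gst-22, and −0.41, −0.42, −0.39 and −0.50 for gst-38. It was −0.92, −0.93, −0.95 and −1.13 for gst-42, and −0.33, −0.34, −0.34 and −0.25 for gcs-1. It was −1.002, −1.01, −0.998 and −1.16 for gss-1, and −0.88, −0.89, −0.88 and −0.90 for gsr-1. It was −0.20, −0.20, −0.22 and −0.18 for mrp-3, and −0.11, −0.12, −0.10 and −0.11 for mrp-5. Values close to 0 also turned without single libraries. gst-7 ranged from −0.25 (without fasted library 2) to 0.16 without fed library 1, and was 0.10 without fed library 4, 0.09 without fasted library 1, 0.07 without fasted library 3 and 0.12 without fasted libraries 1 and 4. gst-42 ranged from −0.10 (without fasted library 4) to 0.31 and was −0.078 without fasted libraries 1 and 4. gss-1 ranged from −0.060 (without fed library 3) to 0.21, was −0.032 without fasted library 1 and was −0.11 without fasted libraries 1 and 4. The cause of these single-library changes was not tested.

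Leaving out 1 library at a time gave 7 to 8 members higher and 5 to 7 lower, 8 to 10 pathway genes higher and 6 lower, and 3521 to 3908 genes higher and 636 to 724 lower, with a ratio of the summed level from 1.17 to 1.31. The labels number replicates 1 to 4 in both groups, but deviations of same-numbered libraries correlated at only 0.0414 to 0.155 and not every library correlated best with its own number, so the numbers were not taken as pairs. The replicate block gave 7 members higher and 6 lower, 10 and 6 pathway genes, and 3576 and 693 of all genes, and lost the call of gst-36 (FDR 0.0184). The block with TMM gave 1 and 10 members, 3 and 8 pathway genes, and 1316 and 1502 of all genes. Depth limits the 28 untested members, for which no difference was tested.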
